A study of Saccharomyces cerevisiae with 6 samples.

Results

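The genes described here encode the proteins of the mitochondrial ribosome of Saccharomyces cerevisiae, followed in cells exposed to linoleic acid hydroperoxide (LoaOOH), a lipid hydroperoxide formed when linoleic acid is oxidised. Members were taken by name, as every gene whose symbol in the probe annotation is MRP, MRPL, MRPS or RSM followed by a number, together with IMG1 and IMG2. MRP8, whose name matches but which is no longer regarded as a ribosomal protein, was left out. This gave 67 of 5449 measured genes, 39 of the large and 28 of the small subunit, each with 1 probe set. In the gene table of assembly R64, 66 of the 67 carry a mitochondrial ribosomal protein name as a synonym, and it matched the assigned subunit and class each time. The exception was RSM22, a methyltransferase-like protein associated with the small subunit.

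The study used BY4743, a diploid laboratory strain in which HIS3, LEU2 and URA3 are disrupted, and all 6 cultures share that genotype. Cultures in minimal medium at 30 °C were in exponential growth at OD600 1.0 when they received 75 µM LoaOOH, a dose the labels describe as arresting, or the same volume of its solvent methanol, and cells were collected after 1 h. Each group held 3 biological replicates, each on 1 Affymetrix Yeast Genome 2.0 array, and the values are RMA expression on the log2 scale. The comparison asks which messages differ between oxidant-treated and solvent-treated cells.

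The mitochondrial ribosome translates the few messages encoded in mitochondrial DNA, nearly all of them for core subunits of the respiratory chain and ATP synthase. Apart from VAR1 its proteins are encoded in the nucleus, made in the cytosol and imported, and each protein is needed in a fixed ratio to the others. Many descend from proteins of the bacterial ribosome, and others have no bacterial counterpart. In S. cerevisiae the RNA-binding protein Puf3 binds many of these messages, and expression of the mitochondrial and the cytosolic ribosomal protein genes is largely uncoupled in this fermenting species.

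Several facts of the whole series bear on the values. Over the 5498 gene probe sets replicate arrays correlated at 0.99768 or more and arrays across groups at 0.95431 or less. Bacterial poly-A messages spiked into the samples are read by 36 probe sets, whose mean was 7.44 ± 0.165 (SD, n = 3) with methanol and 6.93 ± 0.125 with LoaOOH (exact two-sided permutation p = 0.1, the smallest that 3 against 3 arrays allow). Setting these spike-ins equal, here called the spike-in scaling, adds 0.518 to each log2 difference, and the median of all gene probe sets moves from -0.03 to 0.48. Directions below are therefore relative to the typical message in the deposited scaling, and the counts in the spike-in scaling follow them. LEU2 (5.39 with methanol) and URA3 (3.50) lay close to or under the highest negative control (5.15), while HIS3 read 10.99. Where the HIS3 probes lie relative to its disruption is not given in the sources used here.

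The mitochondrial ribosomal protein messages did not move as a block. After LoaOOH 22 of the 67 were higher, 32 were lower and 13 were not called (limma, Benjamini-Hochberg adjusted p under 0.05 over all gene probe sets). Of all gene probe sets 78.7% were called, 36.8% higher and 41.9% lower, so the members' 80.6% was near the background. The groups did not overlap in 57 members (85.1%), against 81.1% of gene probe sets. Their differences ran from -1.07 for MRPS35 to 1.29 for MRPL3, a span of 2.36 on the log2 scale. The median was -0.06, against -0.03 for all gene probe sets. Differences of at least 1.5-fold were called in 8 higher and 14 lower members, where 26.7% of gene probe sets passed that size. At least 2-fold were MRPL3 and MRPS35, where 9.17% of gene probe sets were.

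**Figure D1:**
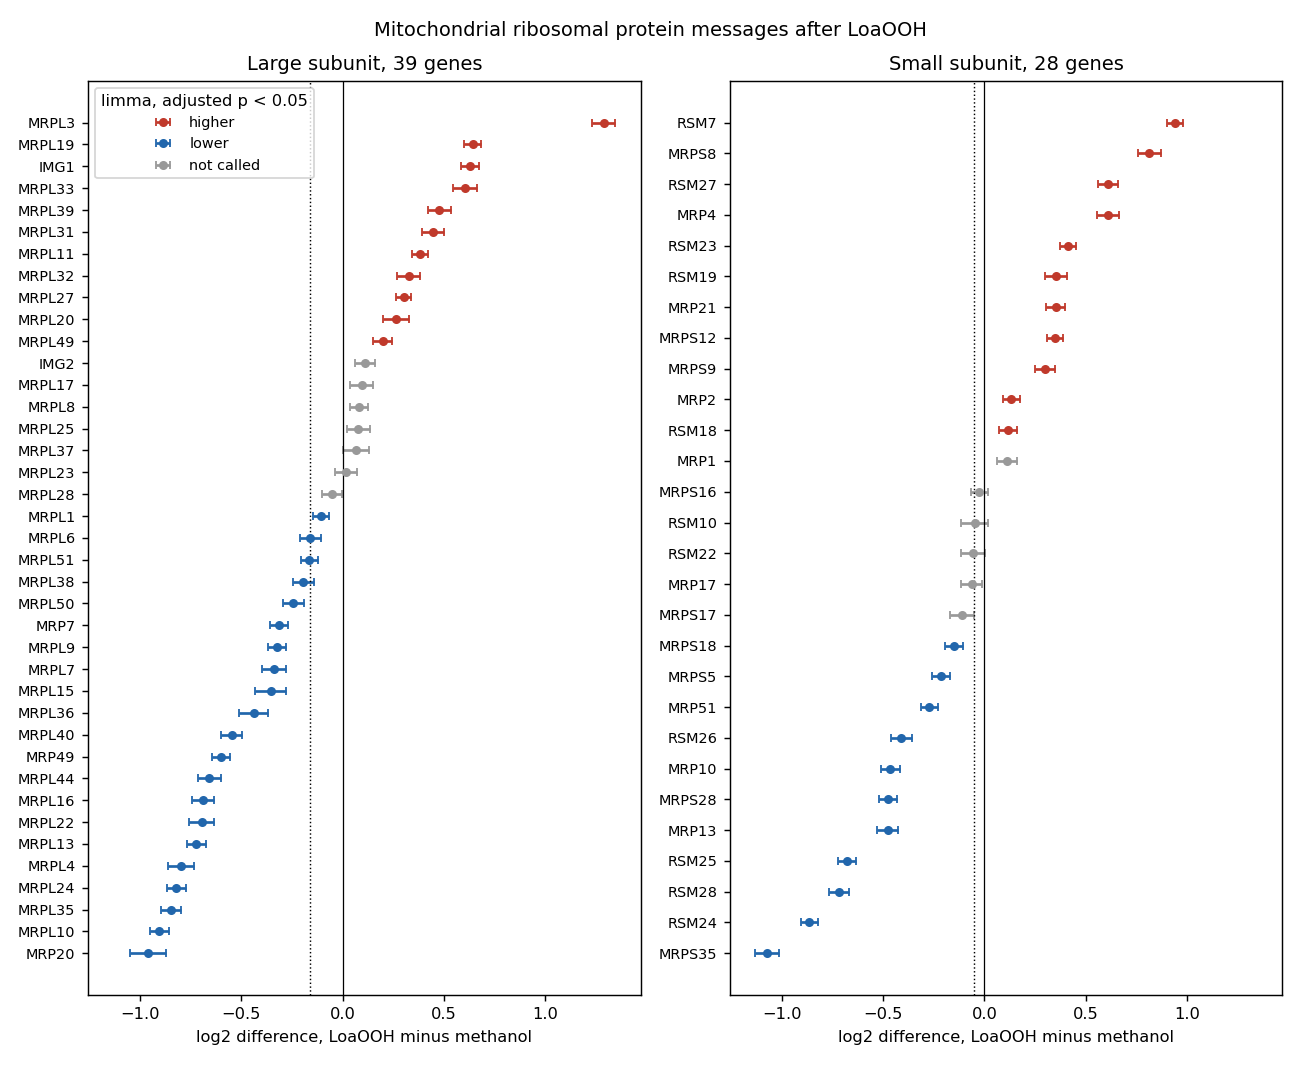
Log2 difference between LoaOOH and methanol for each of the 67 genes, large subunit on the left and small subunit on the right, with standard errors from limma as bars. Red points were called higher, blue lower and grey not called, the dotted line is the median of the subunit (-0.16 and -0.05), and every point would lie 0.518 higher in the spike-in scaling. Both subunits spread from near -1 to near 1, with MRPL3 alone above 1 and MRPS35 alone below -1.

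Each subunit held both directions. In the large subunit 11 of 39 messages were higher, 21 lower and 7 not called, with a median difference of -0.16 and an interquartile range from -0.57 to 0.23. In the small subunit 11 of 28 were higher, 11 lower and 6 not called, with a median of -0.05 and an interquartile range from -0.42 to 0.35. The mean value of the 39 large subunit messages was 11.35, 11.38 and 11.39 on the methanol arrays and 11.23, 11.25 and 11.26 on the LoaOOH arrays. The 28 small subunit messages averaged 11.42, 11.44 and 11.47 with methanol and 11.39, 11.41 and 11.42 with LoaOOH. The large subunit means did not overlap between groups and those of the small subunit nearly touched. Large minus small was -0.07, -0.06 and -0.08 with methanol and -0.15, -0.17 and -0.16 with LoaOOH, a shift that adding a constant to an array cannot alter. The genes in each subunit were chosen by name with earlier results of these data known, and no test was made of these means.

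In the spike-in scaling 41 members were higher and 6 lower, with a median of 0.45, where 65.9% of gene probe sets were higher and 7.68% lower. All 22 members called higher in the deposited scaling were also called higher there. Of the 32 lower members 6 were still lower, 20 were not called and 6 were higher. The 6 still lower were MRPS35, MRP20, MRPL10, RSM24, MRPL35 and MRPL24. All 13 members not called in the deposited scaling were higher. The spread in that scaling is mostly 1 shift per array that all genes share (median SE 0.136), and limma took its size as known exactly, so its adjusted p-values are too small for 3 arrays a group.

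Rises in the large subunit were led by MRPL3, a protein with a ribonuclease III-like fold that sits beside the similar MRPL15. MRPL3 read 10.40, 10.55 and 10.46 with methanol and 11.68, 11.78 and 11.82 with LoaOOH, so every treated array lay more than 1 log2 unit above every control. The difference was 1.29 (SE 0.057, n = 3 per group, 2.45-fold, adjusted p = 8.78e-08). MRPL15 went the other way, from 11.76, 11.85 and 12.01 to 11.39, 11.62 and 11.54 (difference -0.35, SE 0.077, adjusted p = 0.00231; 0.16 and not called in the spike-in scaling). The 2 messages of this structural pair thus separated by 1.64 on the log2 scale.

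Of the next 5 rises, 4 were of proteins with a bacterial counterpart. MRPL19, at the base of the stalk where translation factors dock, rose from 10.44, 10.43 and 10.39 to 11.04, 11.05 and 11.10 (difference 0.64, SE 0.042, adjusted p = 9.61e-07). IMG1, which lies at the interface with the small subunit and was named for the loss of the mitochondrial genome in its mutants, rose from 11.53, 11.54 and 11.47 to 12.12, 12.13 and 12.18 (difference 0.63, SE 0.044). In both genes the replicates lay within 0.1 of each other and the groups were far apart. MRPL33, the counterpart of bacterial L30, rose by 0.60 (SE 0.059), from 11.52 to 11.60 across the methanol arrays and 12.05 to 12.27 across the LoaOOH arrays. MRPL39, the counterpart of L33, rose by 0.48 (SE 0.057), from 12.34 to 12.43 with methanol and 12.75 to 12.94 with LoaOOH. MRPL31, which has no bacterial counterpart, rose by 0.45 (SE 0.054), from 11.64 to 11.80 with methanol and 12.16 to 12.22 with LoaOOH. The largest adjusted p among these 5 was 5.43e-05 and their groups did not overlap. The other 5 higher members of the large subunit were MRPL11 (0.38), MRPL32 (0.33), MRPL27 (0.30), MRPL20 (0.26) and MRPL49 (0.20).

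Falls in the large subunit were led by MRP20, the counterpart of bacterial L23, which lies where the new protein leaves the ribosome and contacts the membrane insertase Oxa1. MRP20 read 9.91, 9.96 and 9.82 with methanol and 9.15, 8.85 and 8.80 with LoaOOH (difference -0.96, SE 0.088, 1.95-fold lower, adjusted p = 8.99e-06). LoaOOH replicate 1 stood above the other LoaOOH arrays for this gene and still well below the controls. MRPL10, the counterpart of L15, fell from 12.40, 12.41 and 12.51 to 11.56, 11.49 and 11.55 (difference -0.90, SE 0.047, adjusted p = 2.40e-07). MRPL35, a mitochondria-specific protein of the central protuberance, fell by 0.85 on the log2 scale (SE 0.049), from 11.37 to 11.47 with methanol and 10.52 to 10.64 with LoaOOH. MRPL24, the counterpart of L28, read 10.63 to 10.69 with methanol and 9.77 to 9.89 with LoaOOH (difference -0.82, SE 0.047). These 4 were also lower in the spike-in scaling, at -0.44, -0.39, -0.33 and -0.30 in that order (adjusted p = 0.00189 to 0.0364).

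MRPL4, the counterpart of L29, fell from 9.39, 9.44 and 9.27 to 8.68, 8.54 and 8.49 (difference -0.80, SE 0.065). MRPL13, with no bacterial counterpart, fell from 11.45, 11.49 and 11.49 to 10.76, 10.68 and 10.81 (difference -0.72, SE 0.046). Neither was called in the spike-in scaling. A further 4 large subunit messages fell by 0.60 to 0.70 on the log2 scale, MRPL22 (-0.70), MRPL16 (-0.69), MRPL44 (-0.66) and MRP49 (-0.60), and the remaining 11 lower members lay between -0.55 for MRPL40 and -0.10 for MRPL1. MRPL1, the least of the 11, had an adjusted p of 0.0374 and was called in 1 of the 6 analyses that left out an array.

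**Figure D2:**
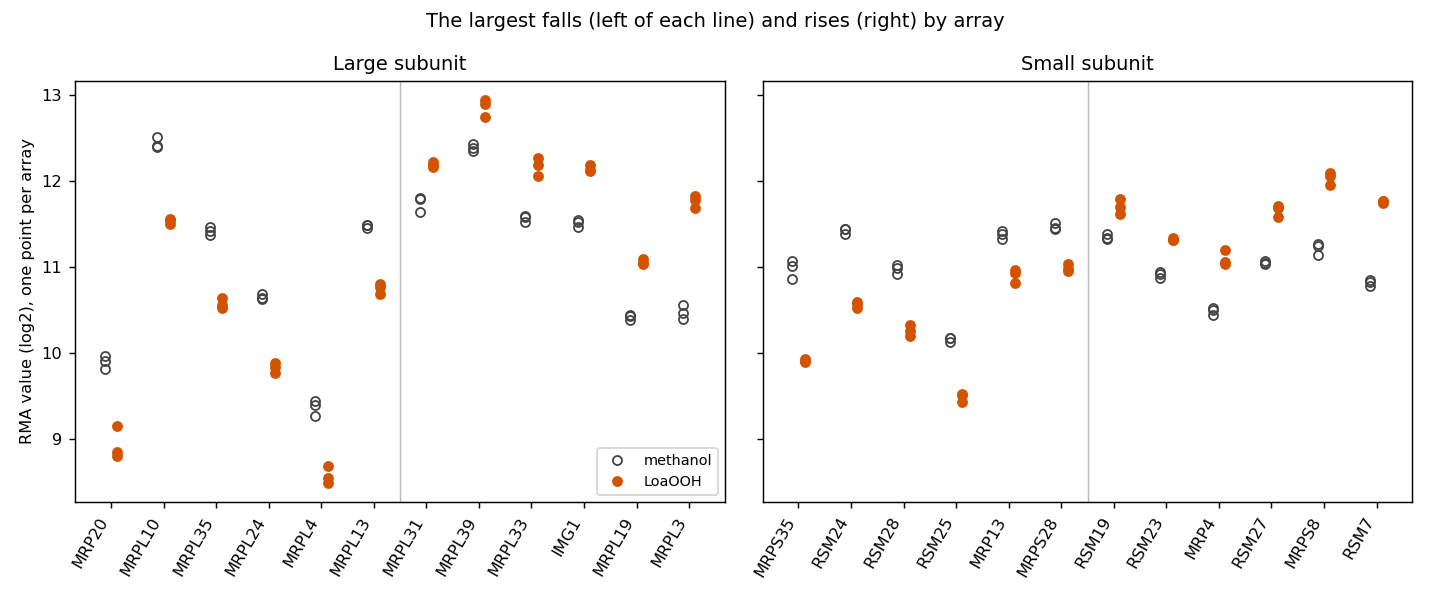
RMA values on the log2 axis for the 6 largest falls and the 6 largest rises of each subunit, 1 point per array, with methanol open and LoaOOH filled. In all 24 genes the 3 LoaOOH arrays lie outside the 3 methanol arrays, because the rule took only such genes, and the widest group is LoaOOH for MRP20, from 8.80 to 9.15. Levels of different genes cannot be compared on this axis, and in the spike-in scaling the falls shrink by 0.518.

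Of the small subunit, RSM7 rose most. It is the counterpart of bacterial S7, which organises the head of the subunit. RSM7 read 10.85, 10.83 and 10.79 with methanol and 11.75, 11.77 and 11.77 with LoaOOH (difference 0.94, SE 0.041, 1.92-fold, adjusted p = 8.74e-08). The treated arrays agreed closely and lay far above the controls. MRPS8, the counterpart of S8 in the body, rose from 11.25, 11.14 and 11.27 to 11.95, 12.05 and 12.10 (difference 0.81, SE 0.056). RSM27, which has no bacterial counterpart, rose from 11.03, 11.05 and 11.08 to 11.58, 11.71 and 11.69 (difference 0.61, SE 0.048). MRP4, the counterpart of S2, rose from 10.50, 10.53 and 10.44 to 11.20, 11.04 and 11.06 (difference 0.61, SE 0.055). RSM23, a GTP-binding protein related to mammalian DAP3, rose by 0.41 (SE 0.041), from 10.87 to 10.94 with methanol and 11.31 to 11.34 with LoaOOH. RSM19, the counterpart of S19, rose by 0.35 (SE 0.053), from 11.33 to 11.38 with methanol and 11.61 to 11.79 with LoaOOH. The other 5 higher members were MRP21 (0.35), MRPS12 (0.35), MRPS9 (0.30), MRP2 (0.13) and RSM18 (0.12). The last was not called in 4 of the 6 analyses that left out an array, with adjusted p = 0.0654 to 0.139, and MRP2 was not called without methanol replicate 1 (0.0597) or LoaOOH replicate 3 (0.0787).

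MRPS35 had the largest fall of the small subunit. This mitochondria-specific protein's message read 10.86, 11.02 and 11.08 with methanol and 9.94, 9.90 and 9.89 with LoaOOH (difference -1.07, SE 0.059, 2.10-fold lower, adjusted p = 3.39e-07; -0.55 with adjusted p = 8.96e-05 in the spike-in scaling). RSM24 fell from 11.38, 11.45 and 11.44 to 10.57, 10.52 and 10.60 (difference -0.86, SE 0.044; -0.35 in the spike-in scaling, adjusted p = 0.0162). RSM28 fell from 10.99, 10.92 and 11.03 to 10.20, 10.26 and 10.33 (difference -0.72, SE 0.050). All 3 lack a bacterial counterpart, and in each the groups lay at least 0.5 apart. RSM25, also specific to mitochondria, fell by 0.68 on the log2 scale (SE 0.045), from 10.13 to 10.18 with methanol and 9.43 to 9.52 with LoaOOH. MRP13 and MRPS28 were both at -0.48, with the groups apart. MRP13 lacks a bacterial counterpart and MRPS28 is that of S15. The other 5 lower members were MRP10 (-0.47), RSM26 (-0.41), MRP51 (-0.27), MRPS5 (-0.21) and MRPS18 (-0.15). Of the small subunit messages, MRPS35 and RSM24 alone were called lower in the spike-in scaling. The p-values of that scaling are too small for 3 arrays a group.

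The 13 members not called had differences between -0.11 and 0.11. In the large subunit these were MRPL28 (-0.05), MRPL23 (0.02), MRPL37 (0.07), MRPL25 (0.08), MRPL8 (0.08), MRPL17 (0.10) and IMG2 (0.11). In the small subunit they were MRPS17 (-0.11), MRP17 (-0.06), RSM22 (-0.06), RSM10 (-0.05), MRPS16 (-0.02) and MRP1 (0.11). Their standard errors were 0.043 to 0.067, so differences as small as the least of the called ones could not be told from 0.

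Arranged by place in the ribosome, the messages of neighbouring proteins in part went together. These places follow the bacterial ribosome, and the grouping was made after the values were seen and was not tested. Of all gene probe sets 36.8% were called higher and 41.9% lower. In bacteria 6 proteins ring the exit of the peptide tunnel. Of their counterparts MRP20, MRPL4, MRPL22 and MRPL40 were lower, at -0.96 to -0.55, MRPL32 was higher at 0.33, and MRPL8 was not called. In yeast a protease of the inner membrane must trim MRPL32 before the ribosome can assemble. The 3 members near the peptidyl transferase centre, where peptide bonds form, were all lower: MRPL16 (-0.69), MRPL9 (-0.32) and MRP7 (-0.32). Of the lower members at the exit and the centre, MRP20 alone was still called lower in the spike-in scaling, where p-values are too small. The 2 members placed at the interface between the subunits went opposite ways. IMG1 was higher (0.63) and MRPL38 lower (-0.19, adjusted p = 0.00703; 0.32 in the spike-in scaling). The stalk was split, since MRPL19 (0.64) and MRPL11 (0.38) at its base were higher, while MNP1, the counterpart of the mobile L7/L12 protein, was at -0.30 (adjusted p = 0.00219; 0.21 in the spike-in scaling).

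Of the 5 members placed in the head of the small subunit, all with a bacterial counterpart, 4 were higher and 0 lower. The share called, 80.0%, was near the 78.7% of all gene probe sets, of which 36.8% were higher and 41.9% lower. RSM7 (0.94), RSM19 (0.35), MRPS9 (0.30) and MRP2 (0.13) were higher, and RSM10 (-0.05) was not called. SWS2, the counterpart of S13 and the remaining nuclear-encoded counterpart of a bacterial head protein, was higher by 0.30 (adjusted p = 0.000352). Of the subunit genes with other names only SWS2 and MNP1 were placed by region, and NAM9, RML2 and the rest were not. Mitochondria-specific proteins of the small subunit were not assigned to the head or the body here. The body and platform held 5 higher, 3 lower and 3 not called of 11, from -0.48 for MRPS28 to 0.81 for MRPS8. Among them MRPS12 (0.35), which lies at the decoding site, read 12.52, 12.53 and 12.52 with methanol and 12.83, 12.89 and 12.89 with LoaOOH.

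**Figure D3:**
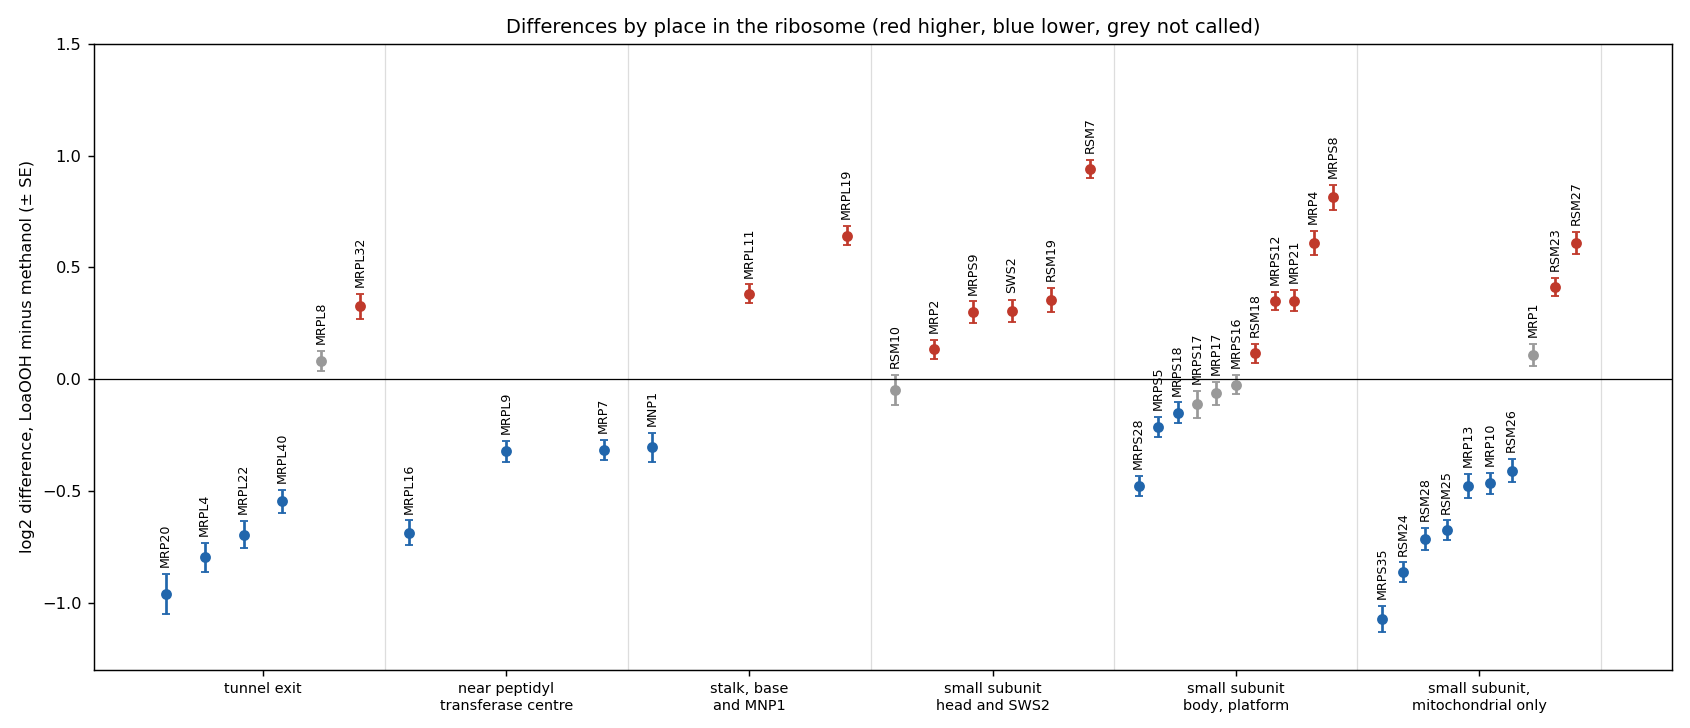
Log2 difference with its standard error for genes placed by region of the ribosome, with MNP1 and SWS2 added from the list of subunit genes with other names. The 2 genes of the subunit interface are not drawn, and the head holds counterparts of bacterial proteins only. Red was called higher, blue lower and grey not called. The 4 lowest tunnel exit genes lie between -0.96 and -0.55 and the head genes between -0.05 and 0.94, and the spike-in scaling moves all points up by 0.518, which takes MRP7, MRPL9 and MNP1 above 0, with others.

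Proteins with and without a bacterial counterpart were set side by side in each subunit. In the small subunit 9 of the 17 with a counterpart were higher and 4 lower (median 0.12), while 2 of the 10 mitochondria-specific ones were higher and 7 lower (median -0.47). In the large subunit 7 of the 24 with a counterpart were higher and 15 lower (median -0.22), while of the 15 mitochondria-specific ones 4 were higher and 6 lower (median 0.07). These counts stand against 36.8% higher and 41.9% lower among all gene probe sets, and no difference between the classes was tested. RSM26 and MRP1, both related to iron and manganese superoxide dismutases, differed from each other: RSM26 fell from 12.19, 12.19 and 12.34 to 11.83, 11.84 and 11.82 (difference -0.41, adjusted p = 7.65e-05), and MRP1 was not called (0.11, adjusted p = 0.0669).

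Lower members had longer coding sequences than higher ones. The coding length in R64 had a median of 805.5 bases in the 32 lower members, 481.5 in the 22 higher and 492 in the 13 not called, and the ranges overlapped, at 288 to 1116, 213 to 1353 and 318 to 1887 bases. Across the 67 genes Spearman's rho between length and difference was -0.38, against -0.13 across all 5449 genes. Between mean level and difference it was 0.31, against 0.05 across all genes. All genes share the same 6 arrays, so these are descriptions. For yeast control messages the 3' minus 5' signal, which reflects RNA and labelling quality, differed between the groups by 0.58 for SRB4. The other control messages lay on both sides of 0, from -0.15 for WBP1 to 0.16 for SPT15. Its part in the members' differences was not tested.

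Upstream neighbours moved in either direction. In R64, 33 of the 67 members lie head to head with a measured upstream gene, with no other gene of that table between them and 175 to 966 bases between the coding sequences. In 17 of these pairs both genes were called, 8 in the same direction, and Spearman's rho over the 33 was -0.05. Of all gene probe sets 78.7% were called, and pairs of other genes were not counted, so the 17 are a description. RSM7 (0.94) lies opposite YJR115W, which fell by 0.88 on the log2 scale. MRPS17 (-0.11, not called) lies opposite GCV2, a glycine cleavage enzyme that rose by 1.62. A pair of members in tandem, RSM19 and MRPS12, both stood at 0.35.

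The cytosolic ribosome was set beside the mitochondrial one. The 128 cytosolic ribosomal protein genes had a median of -0.02 and an interquartile range from -0.25 to 0.11, a width of 0.35, whereas the 67 mitochondrial members had a width of 0.77 and all gene probe sets 0.68. Of the cytosolic genes 33 were higher and 49 lower, or 64.1% called, against 78.7% of all gene probe sets. The groups did not overlap in 84.4% of the cytosolic genes, against 85.1% of the mitochondrial members and 81.1% of all gene probe sets. Called with at least 1.5-fold were 4 of the 128 cytosolic genes and 22 of the 67 mitochondrial members, where 26.7% of all gene probe sets were. Many cytosolic ribosomal proteins come as near-identical gene pairs whose probes may read both copies, and the mitochondrial ones do not. No test of the difference in spread was made.

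**Figure D4:**
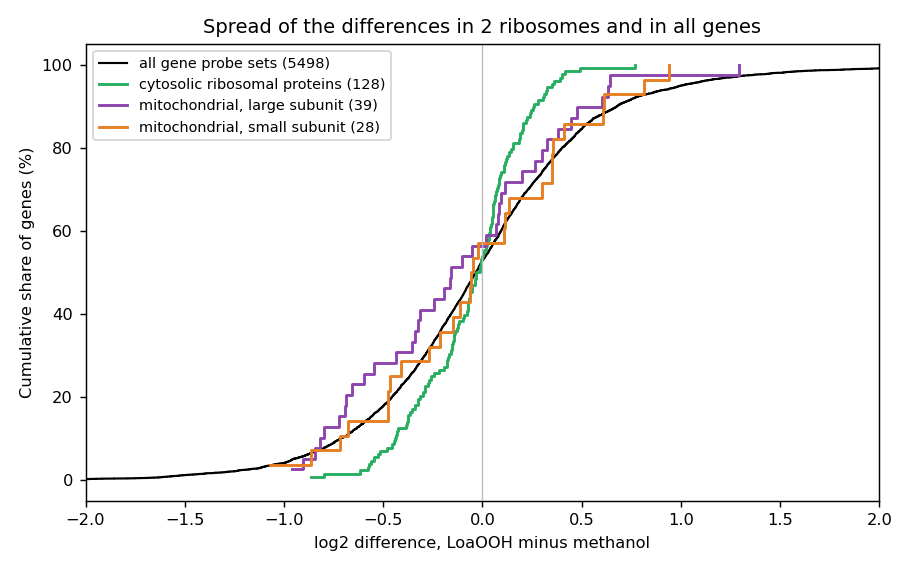
Cumulative share of genes in percent against the log2 difference for all 5498 gene probe sets, the 128 cytosolic ribosomal protein genes and the 39 large and 28 small subunit genes of the mitochondrial ribosome, with genes beyond 2 on either side not drawn. The cytosolic curve is the steepest, with an interquartile range from -0.25 to 0.11, and the mitochondrial curves follow that of all genes, the large subunit lying to the left of it below 0. Scaling to the spike-ins moves all 4 curves right by 0.518.

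Subunit proteins with other names were read separately. Of 11 measured 3 were higher, 5 lower and 3 not called, with a median of 0.03. The share called was 72.7%, against 78.7% of all gene probe sets, of which 36.8% were higher and 41.9% lower. EHD3, a hydroxyisobutyryl-CoA hydrolase also found in the small subunit, rose from 10.74, 10.70 and 10.63 to 11.71, 11.64 and 11.65 (difference 0.97, SE 0.047, adjusted p = 1.48e-07). FYV4, of the small subunit, fell from 10.18, 10.22 and 10.23 to 9.56, 9.56 and 9.58 (difference -0.65, SE 0.040). RML2, the counterpart of L2, fell from 11.92, 11.97 and 11.99 to 11.48, 11.38 and 11.39 (difference -0.54, SE 0.047). With the spike-ins set equal FYV4 (-0.13) and RML2 (-0.03) lost their calls. Besides MNP1 and SWS2, MRX14, the counterpart of L34, was higher (0.21), and YML6 (-0.18), that of L4, and PET123 (-0.12), specific to the small mitochondrial subunit, were lower, the last with adjusted p = 0.034 and above 0.05 in 5 of 6 analyses that left out an array. MHR1 (0.08), which also serves DNA recombination, RTC6 (0.08), the counterpart of L36, and NAM9 (0.03), that of S4, were not called. MRP35 and VAR1 were not analysed here.

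Factors that work with this ribosome were read next. Of 49 other genes of mitochondrial translation and its surroundings 18 were higher, 23 lower and 8 not called (median -0.08), or 83.7% called, which is near the background of 78.7%. Among 10 translation factors 3 were higher and 5 lower. MEF2, which splits the ribosome after a protein is finished, rose from 10.01, 10.04 and 9.98 to 11.06, 11.04 and 10.98 (difference 1.02, SE 0.043, adjusted p = 6.9e-08), and its partner RRF1 rose by 0.18. PTH1, a peptidyl-tRNA hydrolase, was at 0.17 (adjusted p = 0.00791), a call lost with quantile normalisation (0.073, adjusted p = 0.165) and with the robust variance trend (adjusted p = 0.0835). PTH1 averaged 5.89 with methanol and 6.06 with LoaOOH, above but near the highest negative control (5.15). TUF1, the elongation factor that delivers tRNA, went from 13.29, 13.35 and 13.35 to 12.86, 12.78 and 12.83 (difference -0.51, SE 0.044; 0.01 in the spike-in scaling). The release factor MRF1 (-0.27) was lower as well. FMT1, which formylates the initiator tRNA, counts among the 5 lower but averaged 4.69 with methanol and 4.24 with LoaOOH, both under the highest negative control (5.15), so its direction is not read.

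Of 8 genes of ribosome assembly and ribosomal RNA 2 were higher and 5 lower, or 87.5% called. Of all gene probe sets 78.7% were called, 36.8% higher and 41.9% lower. MRM1, an rRNA methyltransferase, rose by 0.27 and the helicase gene MRH4 by 0.16. OMS1, an inner membrane protein resembling methyltransferases, fell by 0.85 on the log2 scale, and the GTPases of large subunit assembly MTG1 and MTG2 were at -0.52 and -0.34. Of 17 translational activators, which act on single mitochondrial messages, 5 were higher and 9 lower. The share called, 82.35%, was near the 78.7% of all gene probe sets. CBS1, an activator for cytochrome b, rose from 9.55, 9.56 and 9.60 to 10.40, 10.68 and 10.61 (difference 0.996, SE 0.070). PET111, an activator for COX2, and SOV1 rose by 0.42 and 0.30. MSS51, an activator for COX1, fell from 11.49, 11.48 and 11.40 to 10.61, 10.49 and 10.42 (difference -0.95, SE 0.057). PET122 and PET54, which serve COX3, were at -0.56 and -0.42. The activators named here thus stood on both sides of 0. The 17 were not grouped by the message they serve, so no pattern by message is read.

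Among 5 genes of insertion into the inner membrane or of ribosome contact with it 3 were higher and 1 lower, or 80.0% called. Of all gene probe sets 78.7% were called, 36.8% higher and 41.9% lower. COX18 (0.59) and YLH47 (0.58) were higher, as was MBA1 (0.23), a ribosome receptor near MRPL4. OXA1, the insertase that receives new proteins at the tunnel exit, fell from 11.34, 11.31 and 11.27 to 10.55, 10.33 and 10.43 (difference -0.87, SE 0.058, adjusted p = 1.09e-06), alongside the falls of MRP20 and MRPL40, which it contacts. Of 4 transcription genes RPO41, the mitochondrial RNA polymerase, rose by 0.38. SLS1, which couples transcription to translation, fell by 1.13 on the log2 scale, from 8.23 to 8.35 with methanol and 6.97 to 7.41 with LoaOOH. NAM1 (-0.60) and the polymerase's specificity factor MTF1 (-0.25) were lower too. Of the falls named here among translation factors, assembly genes, activators, membrane partners and transcription genes, those of OMS1, MSS51, OXA1 and SLS1 were still called with the spike-ins set equal, at -0.33, -0.43, -0.35 and -0.62, and the others were not. The p-values behind these spike-in calls are too small for 3 arrays a group. Of the regulators, PUF3 was not called (0.10), though it was called higher with quantile normalisation (0.15, adjusted p = 0.0244) and with median centring (0.13, adjusted p = 0.0429). HAP2 (0.77), HAP4 (0.36), HAP3 (0.23) and HAP5 (0.13), which form the activator of respiratory genes, were higher. The share called of these 5 regulators, 80.0%, was near the 78.7% of all gene probe sets. HAP5 was not called in 3 of the 6 analyses that left out an array (adjusted p = 0.0508 to 0.0852).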

How the data were processed

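Total RNA of 6 cultures was hybridised to 1 array each. The log2 values are those the authors deposited. Per the submitters' processing notes RMA and Partek were used, with no versions named. RMA subtracts background, quantile-normalises arrays and summarises probes, so it can hide a shift common to most messages. Among 5900 probe sets 184 were controls and 218 carried no annotated gene, and the other 5498, each for 1 gene, were tested. Any 2 arrays shared the same value in at most 0.109% of gene probe sets. Groups came from sample titles. The labels call the replicates biological, and p-values reflect only the spread among these samples. In bulk RNA fewer cells with a message and less message per cell cannot be told apart.

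LoaOOH was compared with methanol in R 4.3.3 with limma 3.58.1, using lmFit and eBayes without covariates and two-sided tests. Precision is limited by the number of arrays, and the median SE of a member was 0.049. A fold is the log2 difference taken out of the log. The procedure was also run on simulated data with independent noise. Those data held no shift shared by the genes of an array, so they do not bear on the scaling. Gene names, neighbours and coding lengths came from the R64 gene table, which all 5498 identifiers matched. The array's genome build is not given in the sources used here, so no positions are printed, and sequences were not used here. The members and gene lists were chosen with earlier results of these data known. Genes shown by array were, in each subunit, the 6 largest called rises and falls whose groups do not overlap, and members not called were named. From the other lists up to 3 called genes each way were named, with all subunit genes of other names. Beyond this rule the other members, their order by place, PUF3, HAP5 and the neighbouring genes were named after their values were seen. The alternatives tried are given with their effect in the closing section.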

Additional observations from a re-analysis of the deposited data

How the results depend on the processing

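Across quantile normalisation, median centring, a robust variance trend, leaving out the dimmest 25% of probe sets, an adjusted p under 0.01, means over probe sets, leaving out cross-hybridising probe sets and the replicate block, between 20 and 25 members were called higher and 29 to 33 lower, and no gene called in either analysis changed direction. Means over probe sets and leaving out cross-hybridising ones changed no member's call, since each has 1 probe set. The spike-in scaling gave 41 higher and 6 lower and moved the median to 0.45 for all members, 0.36 for the large and 0.46 for the small subunit. There the following turned positive, which follows from the shift of 0.518: MRPL36 (0.081), MRPL15 (0.16), MRPL7 (0.18), MRPL9 (0.20), MRP7 (0.20), MRPL50 (0.28), MRPL38 (0.32), MRPL51 (0.35), MRPL6 (0.36), MRPL1 (0.41), MRPL28 (0.47), MRP13 (0.041), MRPS28 (0.041), MRP10 (0.053), RSM26 (0.11), MRP51 (0.25), MRPS5 (0.30), MRPS18 (0.37), MRPS17 (0.41), MRP17 (0.45), RSM22 (0.46), RSM10 (0.47), MRPS16 (0.49), YML6 (0.34), MNP1 (0.21), PET123 (0.40), TUF1 (0.0091), MRF1 (0.25), FMT1 (0.067), MTG2 (0.18), PET54 (0.10) and MTF1 (0.27). Quantile normalisation ended the calls of MRPL1 and PTH1 and added MRPL8, MHR1 and PUF3. Centring ended those of MRPL1 and PET123, added MRPL8, IMG2, MRP1, RTC6, MHR1 and PUF3, and moved the medians to -0.030, -0.13 and -0.020 for all, large and small subunit members. Without the dimmest probe sets, which left 65 members, the large subunit median was -0.10 and the large minus small median -0.051, against -0.11 for the 67. Leaving out 1 array at a time gave 20 to 23 higher and 30 to 32 lower, with medians of -0.10 to -0.060 for all members, -0.18 to -0.12 for the large and -0.088 to -0.0071 for the small subunit, and large minus small at -0.12 to -0.089. The lowest median of the small subunit came without methanol replicate 1 and the highest without methanol replicate 3. The calls lost were those of MRPL1, MRPL6, RSM18, MRP2, MRPS18, PET123 and HAP5, all at differences under 0.2. Without methanol replicate 1 IMG2, MRP1 and RSM22 gained a call, and without methanol replicate 3 MRPL37 and MHR1 did. The robust variance trend ended the calls of MRPL1 and PTH1, and leaving out the dimmest probe sets added IMG2. With the replicate number as a replicate block 23 members were higher and 33 lower, with IMG2 and MRPS17 added. Same-numbered arrays correlated in their deviations from the group means at 0.31, 0.049 and 0.26, and not every array correlated best with its own number, so the numbers were not taken as pairs.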
